A study of Mus musculus with 26 samples.

Results

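The 51 genes followed here encode the enzymes and regulators of glycolysis, lactate formation, the pentose phosphate pathway, pyruvate entry into mitochondria and the tricarboxylic acid (TCA) cycle. The list was drawn up by pathway with earlier results of these data known, and the rule itself uses no measured value. Its members are the rows whose gene symbol is on it. A row was found for 49 of the 51, among 10104 transcripts listed for either cell type. Of these, 47 members were listed for both cell types, among 8177 such transcripts, and Eno2 and Rpia were listed for the differentiated cells alone. Pfkp and Pdk4 were not analysed here. Half-lives in all replicates of both cell types were given for 46 members, because Me1 had none in the differentiated cells.

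The cells were oligodendrocyte progenitor cells (OPCs) and oligodendrocytes (OLs), the cells that make myelin. OPCs of the mouse strain 129S/SvEv were derived from epiblast stem cells and kept in culture with bFGF and PDGFA, and OLs came from such OPCs after a change to medium with thyroid hormone (T3), noggin, IGF-1, NT3 and cyclic AMP. OPCs, and OLs after 40 h of differentiation, were fed the uridine analogue 5-ethynyluridine (5-EU) for 24 h, and unlabelled uridine then replaced it for a chase of 0, 1, 2, 4 or 6 h. Labelled RNA was coupled to biotin, pulled down and sequenced in 3 OPC and 2 OL replicates at each time, and 1 OPC control without biotin was not analysed here. All cells in both groups carried the label and came from cultures and not from tissue, and the OLs stem from 2 of the OPC replicates without a statement of which.

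Glycolysis splits glucose to pyruvate in the cytosol, with a net yield of ATP. Pyruvate is then either reduced to lactate by lactate dehydrogenase or taken into mitochondria, where the pyruvate dehydrogenase complex feeds it to the TCA cycle. The pentose phosphate pathway branches off after the first step of glycolysis and supplies NADPH and ribose. Developing oligodendrocytes need carbon and NADPH for the lipids of myelin, and mature ones can release lactate that axons use. Many steps can be run by more than 1 isoenzyme, and the balance between isoenzymes is a known mark of cell type.

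Levels are given in FPKM, which is per length of transcript and therefore lets genes be compared. The authors scaled the values to labelled spike-in RNA, and from the printed digits the 0 h values were read here as the reference of each replicate, not rescaled themselves. The listed transcripts summed to 342224 to 432287 FPKM at 0 h, and the number of reads behind a value is unknown. All 10 oligodendrocyte markers were listed for OLs and 3 for OPCs, with summed levels of 2983 and 6443 FPKM in the OL libraries and 39.2 to 57.5 FPKM in the OPC libraries. All 8 OPC markers were listed for both (1320 and 1522 FPKM in OLs, 1548 to 1716 FPKM in OPCs), of which Pdgfra, Sox10, Gpr17 and Lhfpl3 were higher in OLs and Olig1 and Olig2 were lower. Gpr17 alone gave 299 and 323 FPKM of the OL sums and 5.00 to 6.61 FPKM of the OPC sums. Astrocyte markers summed to 511 and 609 FPKM in OLs with 6 of 7 listed, and to 253 to 300 FPKM in OPCs with 4 of 7 listed. Neuron markers summed to 188 and 203 FPKM in OLs with 3 of 6 listed, and to 81.8 to 183 FPKM in OPCs with 2 of 6. Genes of dividing cells summed to 430 to 557 FPKM in OPCs and to 68.7 and 152 FPKM in OLs. No marker of pluripotent cells (0 of 5) or microglia (0 of 4) was listed, and what part these lists have in the members' 0 h differences was not tested.

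Short sequence matches in the 3′ untranslated regions (3′ UTRs) are shown first, because such sites are often examined beside mRNA half-lives. The nonamer ATTTATTTA holds overlapping copies of ATTTA, the pentamer of AU-rich elements, a class of sites known to shorten mRNA lifetime. Both were searched on the sense strand of the 3′ UTRs of the listed transcripts in GENCODE M21 on GRCm38. ATTTA was found in 28 of 49 members and in 69.1% of 10090 transcripts. The nonamer was found in 6 of 49 members (12.2%) and in 6.09% of 10090 transcripts. The lines below show the first match in each, in capitals, with 10 bases on either side. In Pfkfb3 and Eno2 further matches overlap with the one shown.
Hk2, chr6:82726624-82726652, minus strand: tatgtttgaaATTTATTTAgtttgaagca
Pfkfb3, chr2:11472046-11472074, minus strand: cagatgtgctATTTATTTAtttaatatgt
Eno2, chr6:124760769-124760797, minus strand: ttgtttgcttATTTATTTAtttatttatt
Ogdh, chr11:6356535-6356563, plus strand: gacacacctgATTTATTTAttttggttaa
Dlat, chr9:50635843-50635871, minus strand: agatttatgtATTTATTTAtaaacaattt
Dld, chr12:31331691-31331719, minus strand: attttctctcATTTATTTAacttccaaat

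Hk2 and Pfkfb3 were among the shortest-lived members in the data that follow, and Ogdh, Dlat and Dld, which hold the same nonamer, kept 45.5% to 101% of their label after 6 h, although the slopes of Ogdh and Dlat in OPCs were also called falling. Eno2, with 9 overlapping copies, kept 73.2% and 20.5% in the OL libraries. Rpia, Pdk2, Hk1 and Pfkfb2, which also declined, have no copy of it. A match is a description of these letters and not evidence of a bound factor.

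The labelled RNA present at 0 h was compared first, to ask how the supply of these enzymes' mRNAs differs between the cell types. The 0 h level reflects the RNA made over 24 h that had survived, and in these cultures fewer cells of a type and less RNA per cell cannot be told apart. Where values of single libraries follow, they stand in the order of the replicate numbers. Of 47 members, 8 were higher and 11 were lower in OLs (limma on log2(FPKM + 1), Benjamini-Hochberg adjusted p under 0.05 over all transcripts). Over all 8177 transcripts 13.8% were higher and 15.8% lower. The median change of the members was -0.46 on the log2 scale, beside -0.01 over all transcripts, and it was -0.26 without OPC replicate 1. The 47 members made up 1.58%, 1.14% and 1.32% of the FPKM summed over the transcripts of both cell types for OPC replicates 1, 2 and 3, against 1.35% and 1.22% for OL replicates 1 and 2, so that their total share overlapped between the cell types.

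**Figure D1:**
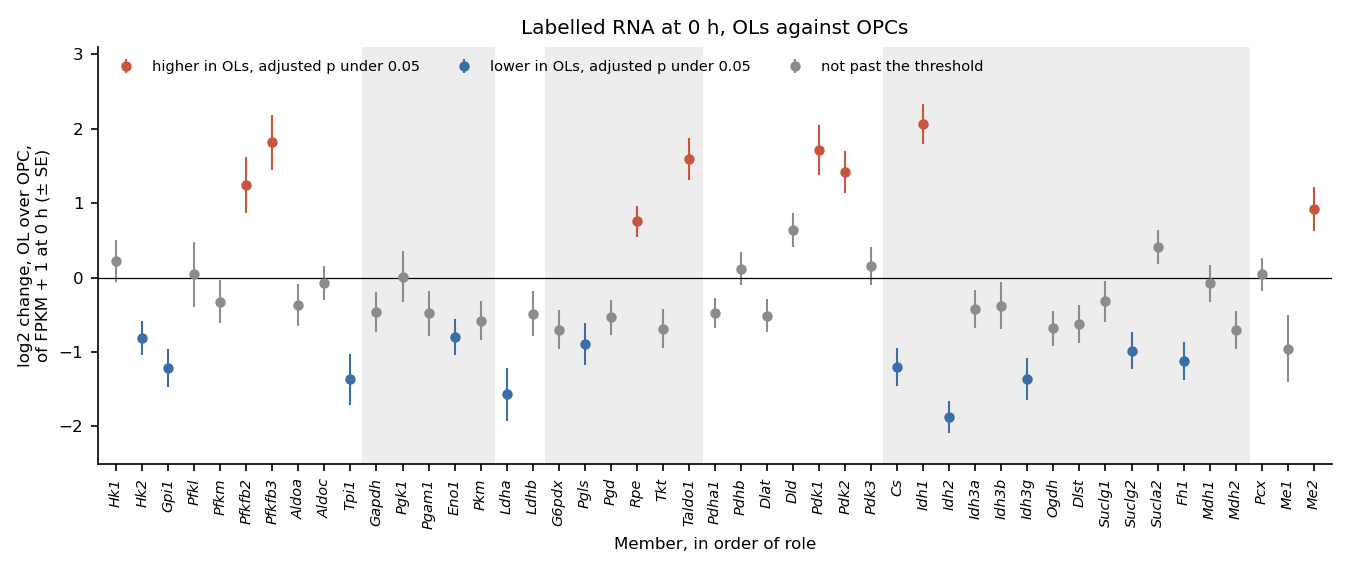
Change of each member's labelled RNA at 0 h, as log2 of OL over OPC on the FPKM + 1 scale (y axis, ± SE, 3 OPC and 2 OL libraries), with members in order of role along the x axis and shaded bands marking the role groups. Idh1 (2.07), Pfkfb3 (1.82) and Pdk1 (1.71) stand at the top, and Idh2 (-1.87) and Ldha (-1.57) at the bottom.

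In upper glycolysis, where hexokinase traps glucose and phosphofructokinase commits it, 2 of 10 members were higher and 3 were lower. The risers were the bifunctional regulators Pfkfb2 and Pfkfb3, whose product fructose 2,6-bisphosphate activates phosphofructokinase. Pfkfb3 had 1.81, 3.86 and 1.89 FPKM across OPCs and 7.38 and 16.2 FPKM across OLs, and Pfkfb2 had 1.56, 5.03 and 4.64 FPKM in OPCs and 9.11 and 9.97 FPKM in OLs. Both were higher in each OL library than in any OPC library, by 1.82 ± 0.37 (adjusted p = 0.00942) and 1.25 ± 0.37 (adjusted p = 0.0385) on the log2 scale (SE). The catalytic subunits Pfkl (40.3, 19.4 and 17.6 FPKM against 37.5 and 16.3 FPKM) and Pfkm (117, 73.1 and 91.9 FPKM against 58.9 and 91.7 FPKM) overlapped between the cell types.

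The members that were lower in upper glycolysis were Tpi1, Gpi1 and Hk2. Tpi1, which interconverts the triose phosphates, had 198, 87.9 and 134 FPKM across OPCs and 44.6 and 57.8 FPKM across OLs (-1.37 ± 0.34, adjusted p = 0.0209). Gpi1, the isomerase of glucose 6-phosphate, had 187, 114 and 142 FPKM in OPCs and 58.9 and 65.1 FPKM in OLs (-1.21 ± 0.26, adjusted p = 0.0115). Hk2, the inducible hexokinase, had 6.52, 8.42 and 6.25 FPKM in OPCs and 3.90 and 3.24 FPKM in OLs (-0.81 ± 0.23, adjusted p = 0.0302), and no OL library reached an OPC library for any of these genes. The brain hexokinase Hk1 had 13.9, 11.1 and 17.8 FPKM in OPCs and 13.3 and 20.5 FPKM in OLs, which overlap. Both aldolases, which split fructose 1,6-bisphosphate, overlapped as well: Aldoa had 521, 297 and 386 FPKM in OPCs and 325 and 282 FPKM in OLs, and Aldoc had 213, 177 and 211 FPKM in OPCs and 163 and 220 FPKM in OLs.

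Among 5 members of lower glycolysis, from glyceraldehyde phosphate to pyruvate, 1 was lower. Eno1, the general enolase and the most abundant member in OPCs, had 701, 465 and 537 FPKM across OPCs and 326 and 315 FPKM across OLs (-0.80 ± 0.24, adjusted p = 0.0407). The neuronal enolase Eno2 was listed in OLs alone, at 2.74 and 1.71 FPKM. Pkm, which makes pyruvate, had 375, 231 and 311 FPKM in OPCs and 216 and 186 FPKM in OLs (-0.58 ± 0.26, adjusted p = 0.129). The kinase Pgk1 (277, 189 and 189 FPKM against 314 and 150 FPKM) and the mutase Pgam1 (230, 130 and 165 FPKM against 148 and 101 FPKM) overlapped between the cell types. Gapdh had 48.3, 32.0 and 47.0 FPKM in OPCs and 34.9 and 25.9 FPKM in OLs, and it, like Ldha, Pgk1, Eno1, Pgam1, Aldoa and Tpi1, has near-identical copies in the genome that can share reads, so that its level is uncertain.

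Lactate dehydrogenase, which interconverts pyruvate and lactate, is built from the subunits encoded by Ldha and Ldhb. Ldha had 560, 312 and 373 FPKM across OPCs and 191 and 95.1 FPKM across OLs, a mean 2.90 times higher in OPCs (-1.57 ± 0.36, adjusted p = 0.0151), with no overlap. Ldhb had 130, 93.5 and 139 FPKM in OPCs and 64.2 and 112 FPKM in OLs, which overlap. In the OL libraries the order of the subunits was not the same: Ldha exceeded Ldhb in replicate 1 and not in replicate 2. Both genes together held 0.161%, 0.105% and 0.128% of the summed FPKM in OPCs and 0.0764% and 0.0635% in OLs.

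Of 6 pentose phosphate members 2 were higher and 1 was lower, beside 13.8% and 15.8% of all transcripts. Taldo1 (transaldolase), in the branch that returns sugars to glycolysis, had 188, 135 and 169 FPKM across OPCs and 629 and 386 FPKM across OLs (1.60 ± 0.28, adjusted p = 0.00508). Rpe, the epimerase of ribulose 5-phosphate, was also higher in OLs (23.7, 29.0 and 25.4 FPKM against 46.4 and 42.8 FPKM, 0.76 ± 0.21, adjusted p = 0.0313), a call lost with a replicate block. Pgls, the lactonase of the NADPH-yielding branch, was lower (244, 135 and 161 FPKM against 101 and 87.2 FPKM, -0.89 ± 0.29, adjusted p = 0.0494), a call lost with a pseudocount of 0.1. The groups did not overlap for any of the 3 genes. The dehydrogenases of that branch did not pass the threshold, G6pdx at -0.70 ± 0.26 (adjusted p = 0.075) and Pgd at -0.54 ± 0.23 (adjusted p = 0.118), nor did Tkt (transketolase) at -0.69 ± 0.27 (adjusted p = 0.0853). Rpia, which makes ribose 5-phosphate, was listed in OLs alone, at 4.73 and 3.75 FPKM.

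Among the 7 members around pyruvate dehydrogenase, 2 of the 3 kinases that switch the complex off were higher and no subunit passed the threshold. Pdk1 had 4.56, 5.46 and 2.57 FPKM across OPCs and 20.7 and 11.6 FPKM across OLs (1.71 ± 0.34, adjusted p = 0.00818). Pdk2 had 6.58, 5.04 and 8.38 FPKM in OPCs and 15.8 and 23.3 FPKM in OLs (1.42 ± 0.28, adjusted p = 0.00792), and the cell types did not overlap for either kinase. Pdk3 had 15.8, 15.4 and 12.7 FPKM in OPCs and 20.5 and 13.0 FPKM in OLs, which overlap. Of the subunits, the E3 component Dld was at 0.64 ± 0.23 (adjusted p = 0.0718), the E1 component Pdha1 at -0.48 ± 0.20 (adjusted p = 0.112) and the E2 component Dlat at -0.51 ± 0.22 (adjusted p = 0.112), and the E1 component Pdhb overlapped between the cell types.

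The largest contrast among the members was between the NADP-dependent isocitrate dehydrogenases. Idh1, the cytosolic enzyme and a source of NADPH, had 53.1, 66.6 and 57.1 FPKM across OPCs and 317 and 196 FPKM across OLs (2.07 ± 0.27, adjusted p = 0.00123), a mean 4.35 times higher. Idh2, its mitochondrial counterpart, had 144, 117 and 118 FPKM in OPCs and 36.4 and 31.0 FPKM in OLs (-1.87 ± 0.22, adjusted p = 0.000807), a mean 3.75 times lower. Idh2 exceeded Idh1 in all 3 OPC libraries and Idh1 exceeded Idh2 in both OL libraries. Idh3g, a regulatory subunit of the NAD-dependent enzyme of the cycle, was lower (138, 88.0 and 88.6 FPKM against 34.3 and 45.0 FPKM, -1.36 ± 0.28, adjusted p = 0.00926), whereas Idh3a and Idh3b were at -0.42 ± 0.26 and -0.38 ± 0.32 and did not pass the threshold.

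Of the other TCA members 3 were lower. Cs, citrate synthase, which opens the cycle, had 319, 210 and 272 FPKM across OPCs and 105 and 124 FPKM across OLs (-1.20 ± 0.25, adjusted p = 0.0102). Fh1, fumarase, had 68.1, 42.7 and 55.2 FPKM in OPCs and 24.8 and 24.1 FPKM in OLs (-1.12 ± 0.25, adjusted p = 0.0135). Suclg2, the GTP-forming subunit of succinyl-CoA synthetase, had 16.5, 25.4 and 17.2 FPKM in OPCs and 9.45 and 9.13 FPKM in OLs (-0.98 ± 0.25, adjusted p = 0.0225). All OL libraries lay under all OPC libraries for these genes. Mdh2, the mitochondrial malate dehydrogenase, had 531, 337 and 412 FPKM in OPCs and 244 and 271 FPKM in OLs (-0.70 ± 0.25, adjusted p = 0.0695), and its cytosolic counterpart Mdh1 had 145, 94.0 and 120 FPKM in OPCs and 107 and 117 FPKM in OLs, which overlap. Sucla2, the ATP-forming subunit, had 19.7, 27.0 and 21.8 FPKM in OPCs and 31.9 and 29.0 FPKM in OLs (0.41 ± 0.23, adjusted p = 0.204), and the subunit Suclg1, common to both forms, had 147, 87.5 and 94.7 FPKM in OPCs and 79.9 and 91.6 FPKM in OLs. The 2-oxoglutarate dehydrogenase components Ogdh (-0.68 ± 0.24, adjusted p = 0.0647) and Dlst (-0.62 ± 0.25, adjusted p = 0.0975) did not pass the threshold.

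Malic enzymes turn malate to pyruvate, in the cytosol with a yield of NADPH (Me1) or in mitochondria (Me2). Me2 was higher in OLs, with 15.7, 15.5 and 18.7 FPKM across OPCs and 44.8 and 23.2 FPKM across OLs (0.92 ± 0.30, adjusted p = 0.0498). This call was lost without any of the OPC replicates (adjusted p = 0.0605 to 0.0984) and without OL replicate 1, where the estimate was 0.46 (0.309), and it was 1.38 (0.0266) without OL replicate 2. Me1 had 43.0, 26.2 and 35.8 FPKM in OPCs and differed widely between the OL replicates, at 9.35 and 31.0 FPKM. Pcx, pyruvate carboxylase, which replenishes oxaloacetate, had 11.5 to 15.2 FPKM in OPCs and 13.6 and 13.7 FPKM in OLs.

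The number of calls at 0 h depended on single libraries, for members and for all transcripts alike. It was 19 members and 2421 transcripts with all libraries, 16 and 2484 without OPC replicate 1, and 23 and 2605 without OPC replicate 2. It was 10 and 1263 without OPC replicate 3, 5 and 896 without OL replicate 1, and 8 and 1181 without OL replicate 2. Idh1 and Idh2 were called in each of these fits and under each other setting tried, and 13 of the 19 were called under every setting that kept all replicates. With a pseudocount of 0.1, Eno1 (adjusted p = 0.0517), Me2 (0.0602), Pgls (0.0619) and Pfkfb2 (0.0582) did not pass the threshold, and neither did Me2 (0.0529) after libraries were shifted to the same median. Eno1, Hk2 and Rpe did not pass it with a replicate block.

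Ratios within a library do not depend on its scale, and 9 pairs of members that share a step or a substrate could be compared (exact two-sided permutation test, with 0.1 the smallest p that 3 against 2 libraries allow). The log2 ratio of Idh1 over Idh2 was -1.42, -0.81 and -1.03 across OPCs and 3.09 and 2.62 across OLs, a difference of 3.94 (exact p = 0.1, 0.15 adjusted over the pairs). The ratio of Suclg2 over Sucla2, the GTP-forming over the ATP-forming subunit, was -0.24, -0.09 and -0.33 in OPCs and -1.65 and -1.57 in OLs. The ratio of Pdk1 over Pdk3 was -1.59, -1.35 and -1.94 in OPCs and 0.01 and -0.15 in OLs.

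The same smallest p of 0.1 was given for Pdk2 over Pdk3 (difference 1.26), Me1 over Me2 (-1.88) and Mdh1 over Mdh2 (0.63). Me1 over Me2 was -2.14 and 0.40 in the OL libraries, and its difference was -0.61 without OL replicate 1 and -3.15 without OL replicate 2. The difference for Pdk2 over Pdk3 was 1.84 and 0.68 without these libraries. Mdh1 over Mdh2 had the tightest replicates, with -1.87, -1.83 and -1.77 in OPCs and -1.18 and -1.21 in OLs. Hk1 over Hk2 differed by 1.03 and Ldha over Ldhb by -1.08 (exact p = 0.2 each), and without OL replicate 1 or 2 these were 1.43 or 0.63, and -1.98 or -0.19. Aldoa over Aldoc differed by -0.29 (exact p = 0.5). No pair could pass a threshold of 0.05 by this permutation test, whatever its difference.

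**Figure D2:**
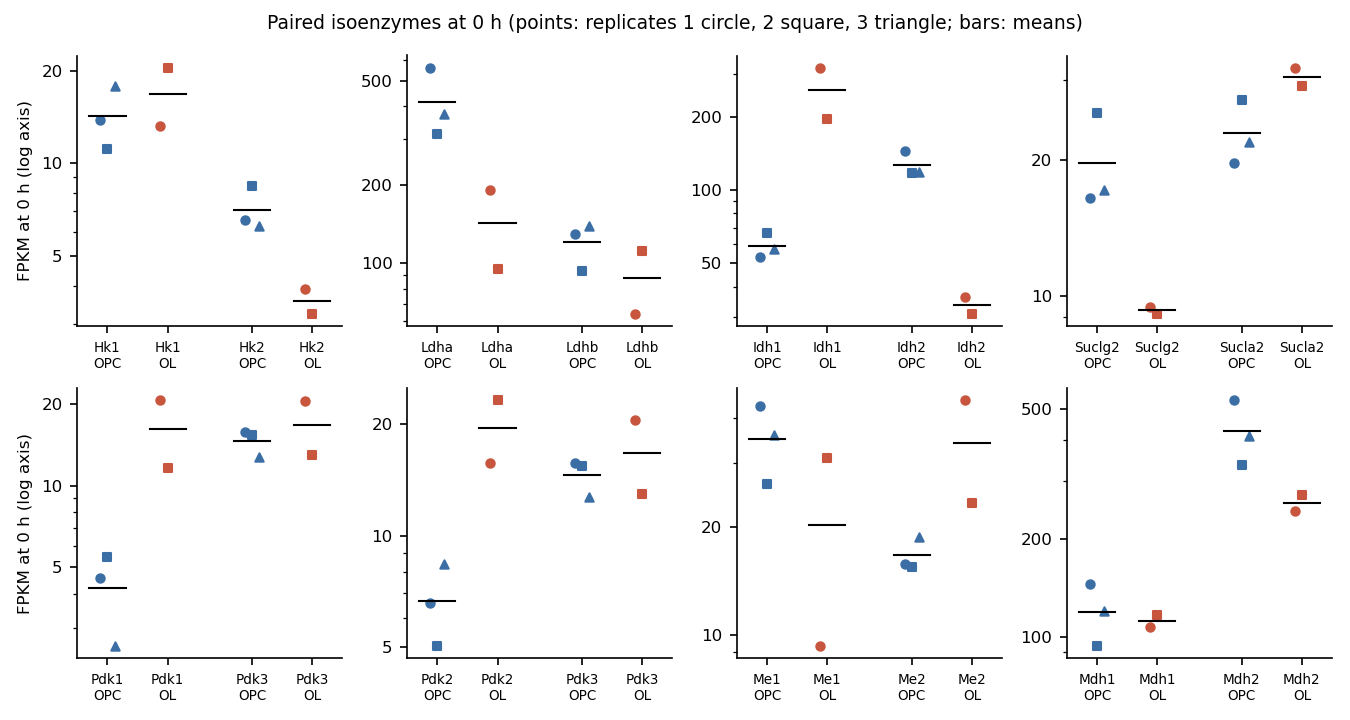
FPKM at 0 h (y axis, log scale) of 8 pairs of isoenzymes or paired subunits in each OPC library (blue) and OL library (red), with symbols for the replicate and bars for group means. The Idh1 and Idh2 panel shows the reversed order: Idh1 at 53.1 to 66.6 FPKM in OPCs and 196 and 317 FPKM in OLs, Idh2 at 117 to 144 FPKM in OPCs and 31.0 and 36.4 FPKM in OLs.

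How long the members' labelled RNA lasted was asked next. Most of it was still there at the end of the chase. The median member kept 71.0%, 123% and 108% of its 0 h level at 6 h in OPC replicates 1 to 3, and 92.0% and 94.5% of it in both OL libraries. The median over all transcripts was 14.4%, 11.0% and 17.7% across OPCs and 31.5% and 36.6% across OLs. In every replicate 42 to 44 members lay above that median. Values over 100% occurred for 12 to 27 members per replicate, beside 5.78% to 11.0% of all transcripts.

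Abundance moves with this result. Among transcripts of at least 50 FPKM at 0 h, the median left at 6 h was 41.9% to 64.9% across OPCs and 63.5% and 70.4% across OLs, and for the 24 to 28 members above that level it was 86.4% to 138% and 98.0% to 111%. The median 0 h level was 66.6 to 88.3 FPKM for members and 17.4 to 19.1 FPKM for all transcripts in OPCs. No value was corrected for unlabelled RNA that binds the beads, and its part in the persistence of abundant transcripts was not tested.

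**Figure D3:**
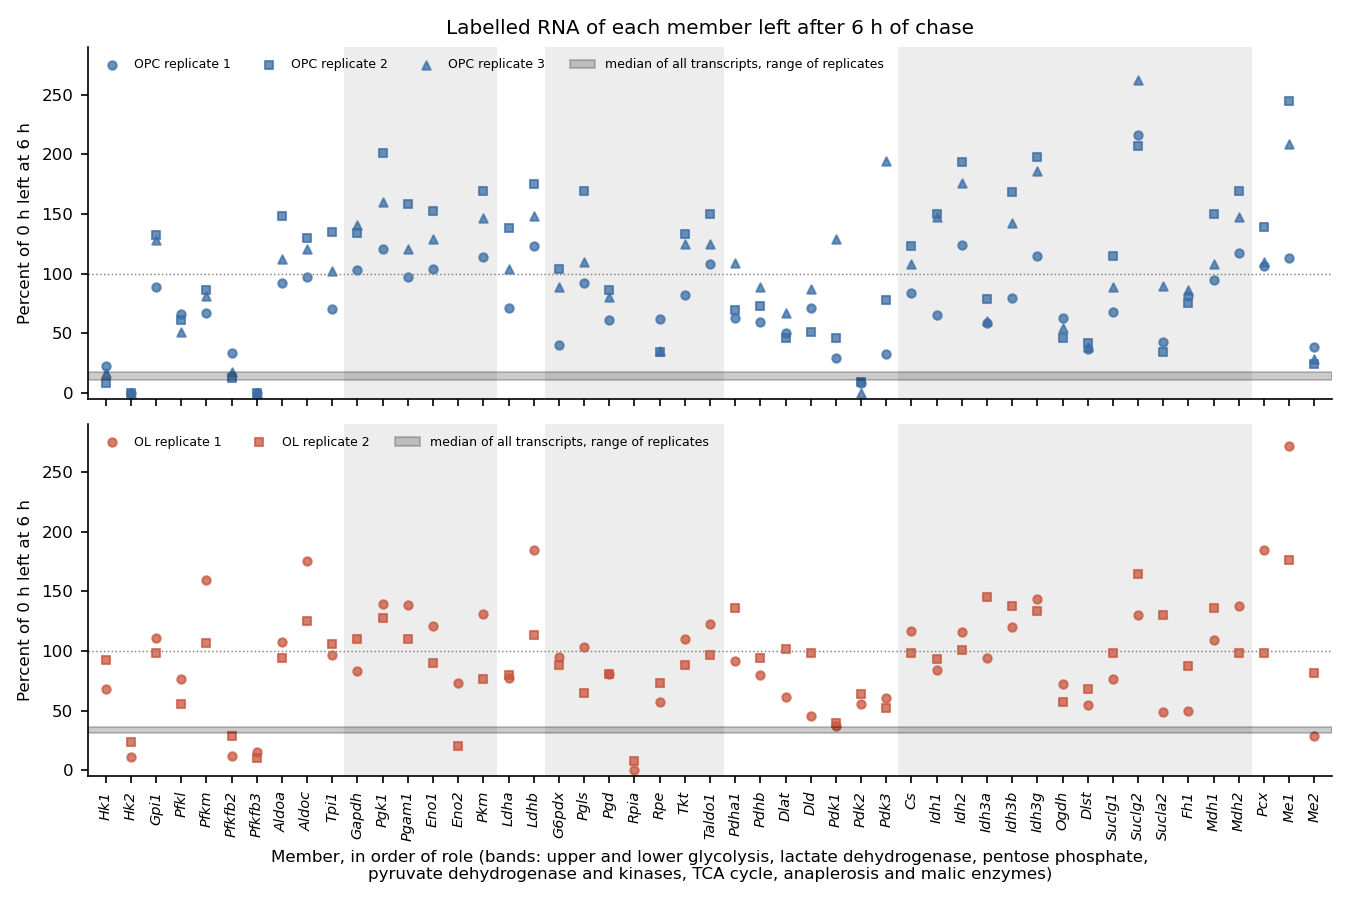
Percent of the 0 h level left after 6 h of chase (y axis) for each of the 49 members (x axis, in order of role), with 1 symbol per replicate, OPCs above and OLs below. The grey band is the range over replicates of the median of all transcripts (11.0% to 17.7% in OPCs, 31.5% to 36.6% in OLs), and Hk2, Pfkfb2 and Pfkfb3 lie in or under it in both cell types, apart from 1 OPC library for Pfkfb2.

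The deposited half-lives end at the last time of the chase, since the authors set longer estimates to a limit of 6 h. In OPCs 35 of 47 members were at 6 h in all 3 replicates, beside 17.4% of all transcripts. In OLs 37 of 48 members were at 6 h in both replicates, beside 28.9% of all transcripts. In both cell types together 32 of 46 members were at 6 h in all 5 replicates, beside 16.1%. The cap hides any difference among these members, and all members of lower glycolysis apart from Eno2, both lactate dehydrogenase genes and Taldo1, Tkt, Pgls and Pgd were among them.

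In OPCs 11 of 47 members fell through the chase (limma, slope of log2(FPKM + 1) on hours, adjusted p under 0.05), where 81.4% of all transcripts fell, and 11 rose relative to the spike-ins, where 4.31% of all did. Members had a median slope of 0.0302 log2 units per h, beside -0.38 for all transcripts, and of 0.0552, 0.0112 and 0.0201 without OPC replicate 1, 2 or 3. The steepest on this scale was Hk2 (-0.54 ± 0.05, adjusted p = 3.39e-08), followed by Pdk2 (-0.38 ± 0.06, adjusted p = 9.35e-06), Hk1 (-0.35 ± 0.07, adjusted p = 9.52e-05) and Pfkfb3 (-0.28 ± 0.05, adjusted p = 2.87e-05). Adding 1 to FPKM flattens the slope of low genes, so this order is not one of lifetime. Pfkfb3 had 1.81, 3.86 and 1.89 FPKM at 0 h in OPCs and 0% left at 6 h. Its half-lives were 0.673, 0.704 and 1.42 h, beside 2.81, 1.49 and 3.49 h for Hk1. Pfkfb2, Me2, Rpe, Dlst, Sucla2, Dlat and Ogdh fell by 0.24 to 0.11 per h. The risers included Suclg2 (0.22 ± 0.05), Me1 (0.17 ± 0.04), Idh3g (0.15 ± 0.04), Pgk1 (0.14 ± 0.04) and Idh2 (0.14 ± 0.03), and without OPC replicate 2 the calls in OPCs numbered 12 in place of 22 (141 transcripts rising and 6408 falling in all, in place of 368 and 6944), and the slope of Sucla2 was -0.08 (adjusted p = 0.299) in place of -0.14.

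In OLs 5 of 49 members fell, where 64.7% of all transcripts fell, and 1 rose, where 0.779% did. Pfkfb3 had the steepest slope (-0.41 ± 0.07, adjusted p = 9.99e-05), followed by Rpia (-0.31 ± 0.05, adjusted p = 0.000201), Pfkfb2 (-0.31 ± 0.06, adjusted p = 0.000566), Hk2 (-0.22 ± 0.05, adjusted p = 0.0025) and Pdk1 (-0.18 ± 0.07, adjusted p = 0.0269). The riser was Aldoc, the brain aldolase (0.13 ± 0.05, adjusted p = 0.0381), at 0.0634 (0.296) without OL replicate 1 and 0.20 (0.0346) without OL replicate 2. The number of calls in OLs was 4 without OL replicate 1 and 9 without OL replicate 2 (5664 and 5073 over all transcripts, in place of 6389), and Pfkfb3 was called in each fit tried. Members had a median slope of 0.0230 per h, beside -0.20 for all transcripts, and of -0.0196 without OL replicate 1. Shifting each library to its 0 h median took the all-transcript medians to -0.01 in both cell types. In OPCs it set 43 members rising and 1 falling, beside 2563 rising and 2189 falling of 8530 transcripts. In OLs it set 37 members rising and 1 falling, beside 2100 rising and 1590 falling of 9751 transcripts. The shift restates that most members declined less than the typical transcript.

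Whether the decline differs between the cell types was tested by the difference of slopes. 3 of 47 members, Hk1, Hk2 and Pdk2, declined less steeply in OLs, where 27.9% of 8177 transcripts did, and 0 declined more steeply, where 0.171% did. The median difference was -0.00 log2 units per h for members and 0.14 for all transcripts, and the members' median was -0.04 without OL replicate 1 and 0.03 without OL replicate 2.

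Hk1 declined in OPCs, and its slope in OLs (-0.03 ± 0.06) did not pass the threshold. After 1, 2, 4 and 6 h OPC replicate 1 kept 83.5%, 50.7%, 71.3% and 22.8% of its Hk1, replicate 2 kept 61.8%, 99.8%, 15.5% and 8.35%, and replicate 3 kept 65.6%, 67.2%, 58.0% and 16.9%. OL replicate 1 kept 84.8%, 108%, 147% and 68.3%, and OL replicate 2 kept 112%, 102%, 108% and 92.1%. At 4 and 6 h both OL replicates lay above all OPC replicates. The slope differed by 0.32 ± 0.10 (adjusted p = 0.0168), and the half-lives were 2.81, 1.49 and 3.49 h in OPCs and at the cap of 6 h in both OL replicates (adjusted p = 0.221).

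Pdk2 showed the same course. It kept 8.30%, 8.99% and 0% at 6 h across OPCs and 55.6% and 63.8% across OLs, with no overlap. Its slope differed by 0.32 ± 0.09 (adjusted p = 0.0108). Its half-lives of 1.86, 2.09 and 2.33 h in OPCs and of at least 6 h in both OL replicates gave a log2 difference of 1.53 ± 0.11 (adjusted p = 0.0274). With both OL values at the cap, this difference is a lower bound, and the OL replicates add no spread to its SE. Pdk2 was the only 1 of 46 members called longer by half-life, where 3.39% of 8112 transcripts were, and 0 were called shorter, where 0.148% were. The half-life call was lost without OPC replicate 2 (adjusted p = 0.0915), without OL replicate 1 (0.116) and without OL replicate 2 (0.108), and also with each replicate centred on its median (0.138), with half-lives refitted by least squares (0.196) or without 6 h (0.702). Relative to the typical transcript the slope difference of Pdk2 was 0.14 (adjusted p = 0.237), that of Hk1 0.15 (0.196) and that of Hk2 0.15 (0.147), so none of the 3 calls held on that scale. None held without the 6 h libraries either, where 1287 transcripts were less steep in OLs in place of 2279.

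Hk2 behaved differently from Hk1. In the first hour it dropped to 47.2% and 50.0% in the OL replicates and stood at 73.2%, 117% and 80.5% in the OPC replicates, and at 6 h it was listed at 0 in all 3 OPC replicates and stood at 11.1% and 23.3% in the OL replicates. The half-lives were 1.35, 1.96 and 1.96 h in OPCs and 1.18 and 1.00 h in OLs (-0.67 ± 0.23 log2 units, adjusted p = 0.221), whereas the slope was less steep in OLs by 0.32 ± 0.08 (adjusted p = 0.00371). The 2 measures therefore point in opposite directions for this gene, whose 0 h level was under 10 FPKM, and with a pseudocount of 0.1 the slope difference was 0.69. Of the 3 slope calls, 1 was left without OL replicate 1 and 0 without OL replicate 2, where 702 and 918 transcripts were less steep in place of 2279.

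**Figure D4:**
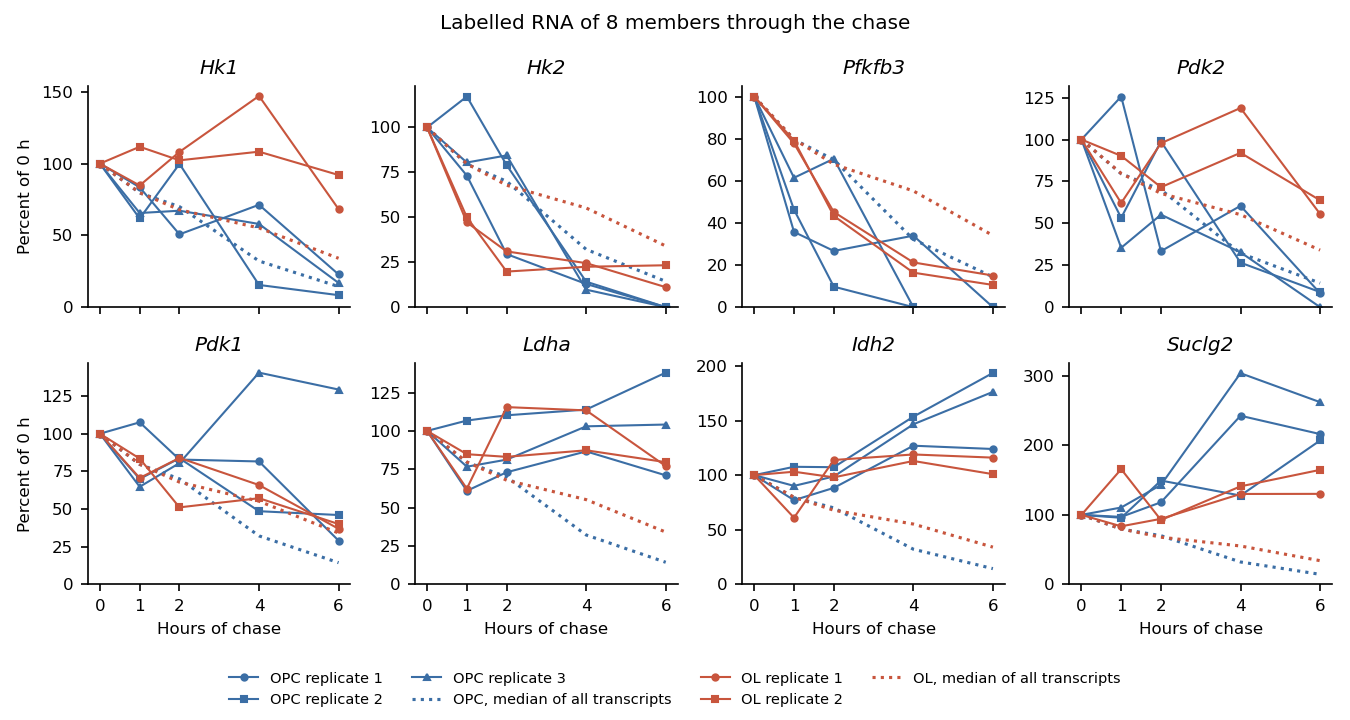
Percent of the 0 h level (y axis) against hours of chase (x axis) for 8 members, 1 line per replicate (OPCs blue, OLs red), with dotted lines for the mean over replicates of the all-transcript median. Hk1 and Pdk2 drop in OPCs and stay high in OLs, Pfkfb3 drops in both, and Ldha, Idh2 and Suclg2 stay above the dotted lines at 6 h.

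Pfkfb3 was short-lived in both cell types. Its half-lives were 0.673, 0.704 and 1.42 h across OPCs and 1.79 and 1.66 h across OLs, and at 6 h it was listed at 0 in all OPC replicates and stood at 15% and 10.5% in both OL libraries. Pfkfb2 had half-lives of 6, 2.51 and 2.33 h in OPCs and 2.58 and 5.07 h in OLs, with replicates of each cell type far apart. Rpia, measured in OLs alone, had half-lives of 1.26 and 1.44 h. Dlst, the E2 component of the 2-oxoglutarate dehydrogenase complex, had 4.14, 5.95 and 5.71 h in OPCs and was at the cap in OLs.

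**Figure D5:**
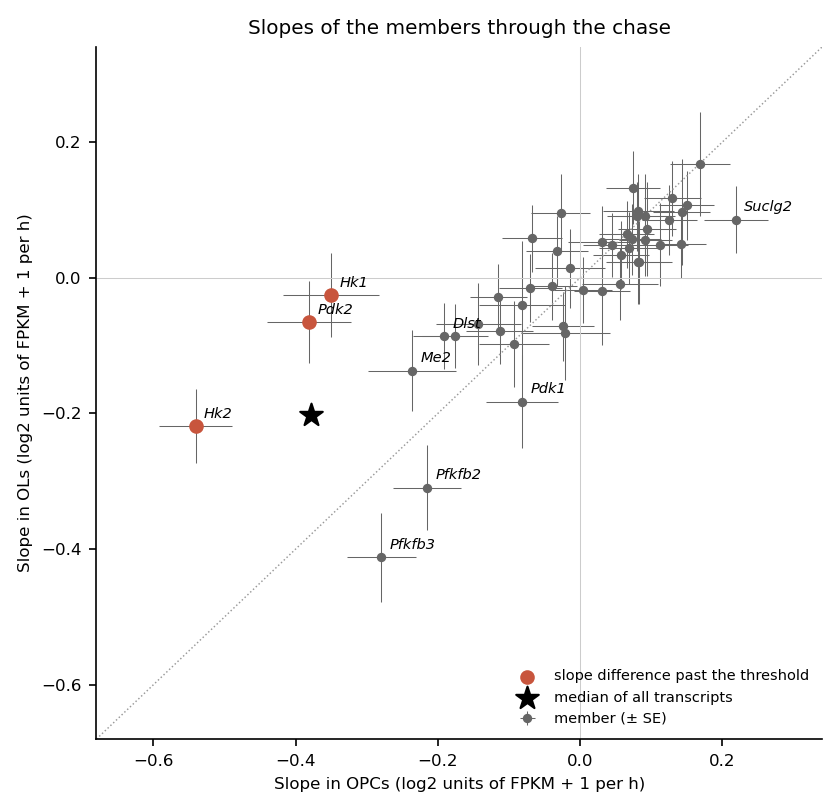
Slope through the chase in OLs (y axis) against the slope in OPCs (x axis), in log2 units of FPKM + 1 per h (± SE), for the 47 members listed for both cell types, with the diagonal dotted. Most members lie near 0 on both axes and near the diagonal, Hk1, Hk2 and Pdk2 lie above it, and the median of all transcripts (star) lies at -0.38 in OPCs and -0.20 in OLs.

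Because the typical transcript declined less in OLs and the members hardly moved, their position relative to the typical transcript differed. After each later library was shifted to a median change of 0, the slope of 20 members was lower in OLs, where 10.8% of all transcripts were, and that of 0 was higher, where 4.77% were. The shift moves every slope difference by the same amount, so any transcript stable in both cell types falls under 0. The counts therefore restate the members' stability, and members were not compared with equally stable transcripts. The median was -0.17 log2 units per h for members and -0.03 for all transcripts. Idh2 (-0.26 ± 0.06, adjusted p = 0.00715) and Suclg2 (-0.31 ± 0.06, adjusted p = 0.00225) were among the 20, with Fh1, Idh1, Idh3g, Cs, Mdh1, Mdh2 and Suclg1 of the TCA cycle, Aldoa, Gpi1, Pfkfb2 and Pfkfb3, Eno1, Pkm and Gapdh, Ldhb, Pgls and Tkt, and Pdk1. These were spread over all role groups apart from the malic enzymes and Pcx. The count of members lower in OLs was 26 without OPC replicate 1, 4 without OPC replicate 2, 9 without OPC replicate 3, 3 without OL replicate 1 and 0 without OL replicate 2. The count over all transcripts went from 883 to 1280, 263, 573, 107 and 43 in these fits. By percentile of the half-life within a replicate, limma called 0 of 46 members, where 0.185% of transcripts were higher and 0.0986% lower in OLs, with 2 members at an unadjusted p under 0.05.

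Codon usage and 3′ UTR length are given as a description. The median UUU share of phenylalanine codons was 42.9% in members and 44.4% over all transcripts, the AAA share of lysine codons 30.0% and 37.5%, and the G+C share at the last base of codons 63.7% and 60.6%. Across 47 members in OPCs, Spearman's rho of the mean half-life was 0.00 with the UUU share, -0.23 with the AAA share and 0.07 with that G+C share, and across 48 members in OLs it was -0.21, -0.19 and 0.18. Over all transcripts the same values were 0.02, -0.00 and -0.02 in OPCs (8479 transcripts) and -0.15, -0.21 and 0.22 in OLs (9686 transcripts). With 3′ UTR length rho was -0.37 in OPCs and -0.40 in OLs, beside -0.16 and -0.22 over all transcripts. These points share libraries and 35 and 37 of them are tied at the cap, and genes are not replicates.

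Other genes of the same pathways, from a list of 44, were measured in both cell types for 27. At 0 h 5 of them were higher and 5 lower in OLs, shares near those over all transcripts. Both subunits of the mitochondrial pyruvate carrier, Mpc1 (0.79 ± 0.23) and Mpc2 (0.93 ± 0.25), were higher, as were Pdhx (0.76 ± 0.22), Bpgm (0.83 ± 0.25) and the citrate carrier Slc25a1 (0.79 ± 0.24). The dicarboxylate carrier Slc25a10 (-1.92 ± 0.23), Prps1 (-1.26 ± 0.24) and Prps2 (-0.99 ± 0.27), which make the ribose phosphate donor for nucleotides, Pck2 (-1.15 ± 0.32) and Sdha (-0.73 ± 0.22) were lower. In the difference of slopes 5 of the 27 were less steep in OLs, beside 27.9% of all transcripts.

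Targets of the hypoxia-inducible factor outside the members were taken from a list of 18, of which 12 were measured in both cell types. At 0 h 7 were higher in OLs, beside 13.8% of all transcripts, and 1 was lower, beside 15.8%, with Bnip3 (1.88 ± 0.31), P4ha1 (1.48 ± 0.21), Mxi1 (1.46 ± 0.21) and Vegfa (1.09 ± 0.22) higher and Egln3 (-1.25 ± 0.33) lower. Members are left out of this list, so it does not stand for all targets of the factor. Members went both ways at 0 h, with Pfkfb3 and Pdk1 among the 8 higher and Ldha, Tpi1, Gpi1, Hk2 and Eno1 among the 11 lower. The part of the factor in these levels was not tested.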

How the data were processed

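Libraries were grouped by cell type, replicate and time as their labels give them (15 OPC and 10 OL libraries used). Per the labels and the study's methods, the authors aligned reads to GRCm38 with HISAT2 2.1.0, tabulated FPKM with StringTie 1.3.5 over canonical coding transcripts of GENCODE M9, removed transcripts under 1 FPKM at 0 h and at 0 FPKM at 1 and 2 h, so that listed transcripts are also selected on the early chase, and scaled the deposited FPKM to labelled spike-ins. The deposited half-lives, in h, were fitted by the authors to each replicate by least absolute deviations, with longer estimates set by the authors to a limit that the files hold as values just over 6 h, read here as 6 h. An error of a spike-in factor moves all transcripts of its library. Counts and depth cannot be had from FPKM, so no counting error is given.

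Tests used limma 3.58.1 in R 4.3.3 on log2(FPKM + 1) or log2 half-life, without blocks or filters, with Benjamini-Hochberg adjustment over all transcripts tested, after a check on simulated data. A fold change on the log2(FPKM + 1) scale understates that of low genes. With 3 and 2 replicates, grown as biological replicates, p-values at 0 h and for half-lives rest on few degrees of freedom. The slope fits took the libraries of all time points as independent, with no term for the replicate they came from. Their p-values therefore measure scatter among libraries and not variation among the 3 OPC and 2 OL replicates. Every member is accounted for by role, with values per library for those called between the cell types at 0 h and those of isoenzyme pairs, and for others where they help to read a role group. Members, gene lists and tests were chosen with earlier results of these data known. Alternatives were pseudocount, filter, scaling, refitted half-lives, time points and left-out replicates. 3′ UTRs and codons came from GENCODE M21 on GRCm38, matched by transcript identifier for 10090 of 10104 transcripts and all 49 members.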

Additional observations from a re-analysis of the deposited data

Results flagged for a closer look

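The slopes of 3 members differed between OPCs and OLs by the test of the difference itself (cell type by time in limma, adjusted over 8177 transcripts). The difference, OL minus OPC in log2 units of FPKM + 1 per h, was 0.32 ± 0.10 for Hk1, 0.32 ± 0.08 for Hk2 and 0.32 ± 0.09 for Pdk2 (SE, adjusted p = 0.0168, 0.00371 and 0.0108). None of the 3 was called without the 6 h libraries or relative to the typical transcript. All 3 genes were under 25 FPKM at 0 h in every library, and at 6 h Hk2 was listed at 0 in 3 and Pdk2 in 1 of the 3 OPC libraries. Transcripts listed at 0 at 6 h made up 15.7% to 21.6% of each OPC library and 0.790% and 4.08% of the OL libraries, and the part of this in the slope differences was not tested.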

How the results depend on the processing

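Calls among members depended most on the late time points, the scale and single libraries. Shifting libraries to the 0 h median gave 44 called slopes in OPCs and 38 in OLs. Over all transcripts 2563 rose and 2189 fell in OPCs, and 2100 rose and 1590 fell in OLs. The shift turned the OPC slopes of Ogdh (0.25), Sucla2 (0.22), Me2 (0.13), Rpe (0.19), Dlat (0.25), Dlst (0.17), Pfkfb2 (0.15), Hk1 (0.0141) and Pfkfb3 (0.0846) and the OL slope of Pdk1 (0.0134) to above 0. Without the 6 h libraries 10 slopes were called in OPCs, 3 in OLs, 0 in the slope difference and 5 in the relative slope, and Sucla2 in OPCs was at 0.0227. Over all transcripts 151 then rose and 5690 fell in OPCs, and 14 rose and 3882 fell in OLs. The slope difference was higher in OLs for 1287 transcripts and lower for 5, and the relative slope for 441 and 388. With a pseudocount of 0.1 the relative slope gave 34 calls, 1 higher and 33 lower in OLs, and Pfkfb3 turned to 0.0313. Over all 8177 transcripts 662 were then higher and 1491 lower. No half-life call (0 of 46) was left after centring each replicate on its median, after refitting by least squares and after refitting without 6 h. Leaving out 1 replicate at a time gave 5 to 23 calls at 0 h, 12 to 23 for slopes in OPCs, 4 to 9 in OLs, 0 to 2 for half-lives, 0 to 3 for the slope difference and 0 to 26 for the relative slope, and a lone OL library was then assumed to vary like the OPC libraries. With 1 replicate left out, the difference of the isoenzyme ratio was 3.71 to 4.17 for Idh1 over Idh2, -3.15 to -0.61 for Me1 over Me2, -1.98 to -0.19 for Ldha over Ldhb and -0.61 to 0.0245 for Aldoa over Aldoc, and that of the share of FPKM held by all members was -0.160 to 0.0562 percentage points. The ratios with Pfkp, and Eno1 over Eno2 between the cell types, were not run because no OPC value was at hand, and Pfkl over Pfkm, added after the data were seen, differed by 0.37 (exact p = 0.7).

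Replicate numbers were not used as pairs in the main fits, because the study does not state which OPC replicates the OLs came from. The differences between replicates 1 and 2 correlated at 0.04 (0 h) and -0.06 (half-life) between the cell types across transcripts. These values cover 1 assignment of numbers and cannot show whether the cultures were paired. The replicate block gave 0 called half-lives and 10 called slopes in OLs, and it moved the other counts by at most 1.5 times. At 0 h Eno1 (adjusted p = 0.0838), Hk2 (0.0657) and Rpe (0.122) did not pass the threshold under it, nor did the half-life of Pdk2 (0.155).

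Read numbers are not known for any value, and members at the cap of 6 h have no measurable half-life difference.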
